A study of Homo sapiens with 18 samples.

Results

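Potassium channel genes are here the 96 protein-coding genes of the count tables whose GENCODE symbol begins with KCN, out of 61541 genes listed and 19967 protein-coding ones. They were chosen by name alone and fall into 17 families. The tables hold RNA-seq read counts of A549 cells, a human non-small cell lung cancer line (genotype WT) kept in DMEM high glucose medium with fetal bovine serum, in 6 groups of 3 libraries. Cells had no treatment or 5 mM sodium propionate (SP), the salt of a short-chain fatty acid. One table gives the counts of SP 3 days and SP 12 days with those of control 3 days and is called the first, and the second gives SP 3 h and SP 24 h with control 24 h. SP 3 h and SP 24 h were compared with control 24 h, and SP 3 days and SP 12 days with control 3 days. SP 3 h and SP 12 days thus had no control of their own time, and there the effect of SP and that of time cannot be told apart. A549 is 1 line. The study describes the RNA-seq libraries of the hours as biological replicates, while for those of the days the labels do not say whether cultures were separate, so their p-values measure a spread that may be technical.

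Potassium channels let K+ pass the membrane down its electrochemical gradient and so set the membrane potential. Voltage-gated (Kv) pores open on depolarization, the SK, IK and BK channels open with intracellular calcium, inward rectifiers (the KCNJ genes) pass current mostly inward and hold the resting potential, and two-pore domain channels (KCNK) carry background leak. In airway and alveolar epithelium, K+ exit through such channels keeps the driving force for chloride secretion. Many KCN genes are best known from nerve, heart or muscle.

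Of the 96 members, 51 passed the expression filter in the first table and 45 of these in the second. The other 45 had at most 37 reads in any library and were not tested, and 7 had 0 reads in all 18 libraries. In the text, a member rose or fell when the adjusted p of edgeR's quasi-likelihood test, taken over all genes tested, was under 0.05. It was called when it met the stricter thresholds of the study, 0.0001 for the adjusted p together with a change of 2-fold or more. Levels in a library are depth-scaled reads (CPM, edgeR's unit, with TMM factors), and levels between genes are compared only per kilobase of exon (RPKM). Folds are on the log2 scale unless a fold is written, and ± is the SE of a fold change or the SD of a level.

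Most potassium channel genes that moved with SP rose. At 3 days 32 of 51 tested members rose and 6 fell, against 25.2% and 23.3% of all genes tested. At 12 days 33 rose and 8 fell, against 26.4% and 23.4%. At 24 h 21 of 45 members rose and 4 fell, against 16.8% and 12% of all genes, and at 3 h 9 rose and 1 fell, against 7.39% and 4.11%. The median log2 fold change of the tested members was 0.32 at 3 h, 0.65 at 24 h, 1.03 at 3 days and 1.25 at 12 days, while the median of all genes lay between −0.02 and 0.00.

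At the thresholds of the study 13 members were called higher and 1 lower at 3 days, where 8.44% of all genes were called in either direction. At 12 days 16 were called higher and 1 lower, against 9.11%. At 24 h 1 member was called, against 0.685%, and with the replicate block, whose numbers appear to pair control 24 h and SP 24 h, it was 0 members and 0.0115%. Leaving out 1 library at a time gave 1 to 87 of all genes called at 24 h, in place of 119. At 3 h edgeR called 0 members and 0% of all genes. DESeq2 called 3 members at 3 h, where it called 2.29% of all genes, and 12 at 24 h, against 4.95%. It called 17 at 3 days and 20 at 12 days, against 7.22% and 7.77%.

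Some tested members had entered through the SP libraries. A subset of 15 of the 51 members for the days, and of 10 of the 45 for the hours, did not reach the cutoff in all 3 control libraries. Those of the days included KCNA2, KCNA7, KCNG2, KCNH4, KCNIP3, KCNJ4, KCNJ8, KCNJ12, KCNK9, KCNK12, KCNN2 and KCNU1. Those of the hours included KCNA7, KCNIP3, KCNJ4, KCNK12, KCNN2, KCNQ1 and KCNT2. For such members a rise and entry to the test are linked, except for KCNK12 in the days, where no group had all 3 libraries over the cutoff. KCNJ6 in the days and the hours and KCNE3 in the days reached it in all 3 libraries only in control. For these a fall and entry to the test are linked. Among the 36 members whose control libraries were all over the cutoff, 19 rose and 6 fell at 3 days, against 22.9% and 26.3% of all genes that met the same condition. At 12 days 19 rose and 7 fell, against 24.3% and 26.4%. Among the 35 such members of the second table, 15 rose and 4 fell at 24 h, against 14.4% and 13.8%, and 5 rose and 1 fell at 3 h, against 7.12% and 4.73%. When all genes were parted into 3 equal bins by mean expression, 23.2% of the lowest bin were higher and 4.07% lower at 24 h, and 31 of the 45 members lay in that bin. Of these 31 members, 13 were higher and 1 lower. In the middle bin 7 of 11 members were higher and 2 lower at 24 h, against 17% and 14.8% of its genes. At 3 days 17 of 30 members of the lowest bin were higher and 4 lower, against 25.8% and 12.7%. In the middle bin it was 12 of 17 and 2, against 24.6% and 29.6%.

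Under a correction for GC content and exon length the balance of all genes turned but not that of the members. The correction also re-centred each library on its mean log2 CPM over the genes tested, and these parts were not separated. It gave 1489 higher and 1553 lower genes at 3 h in place of 1285 and 714, and 2450 and 4186 at 24 h in place of 2922 and 2087. At 3 days it gave 3793 and 5910 in place of 4487 and 4147, and at 12 days 4026 and 5708 in place of 4692 and 4166. The median of all genes moved to between −0.13 and −0.07. Under it 9 members were higher and 2 lower at 3 h, 18 and 5 at 24 h, 28 and 8 at 3 days, and 32 and 9 at 12 days.

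**Figure D1:**
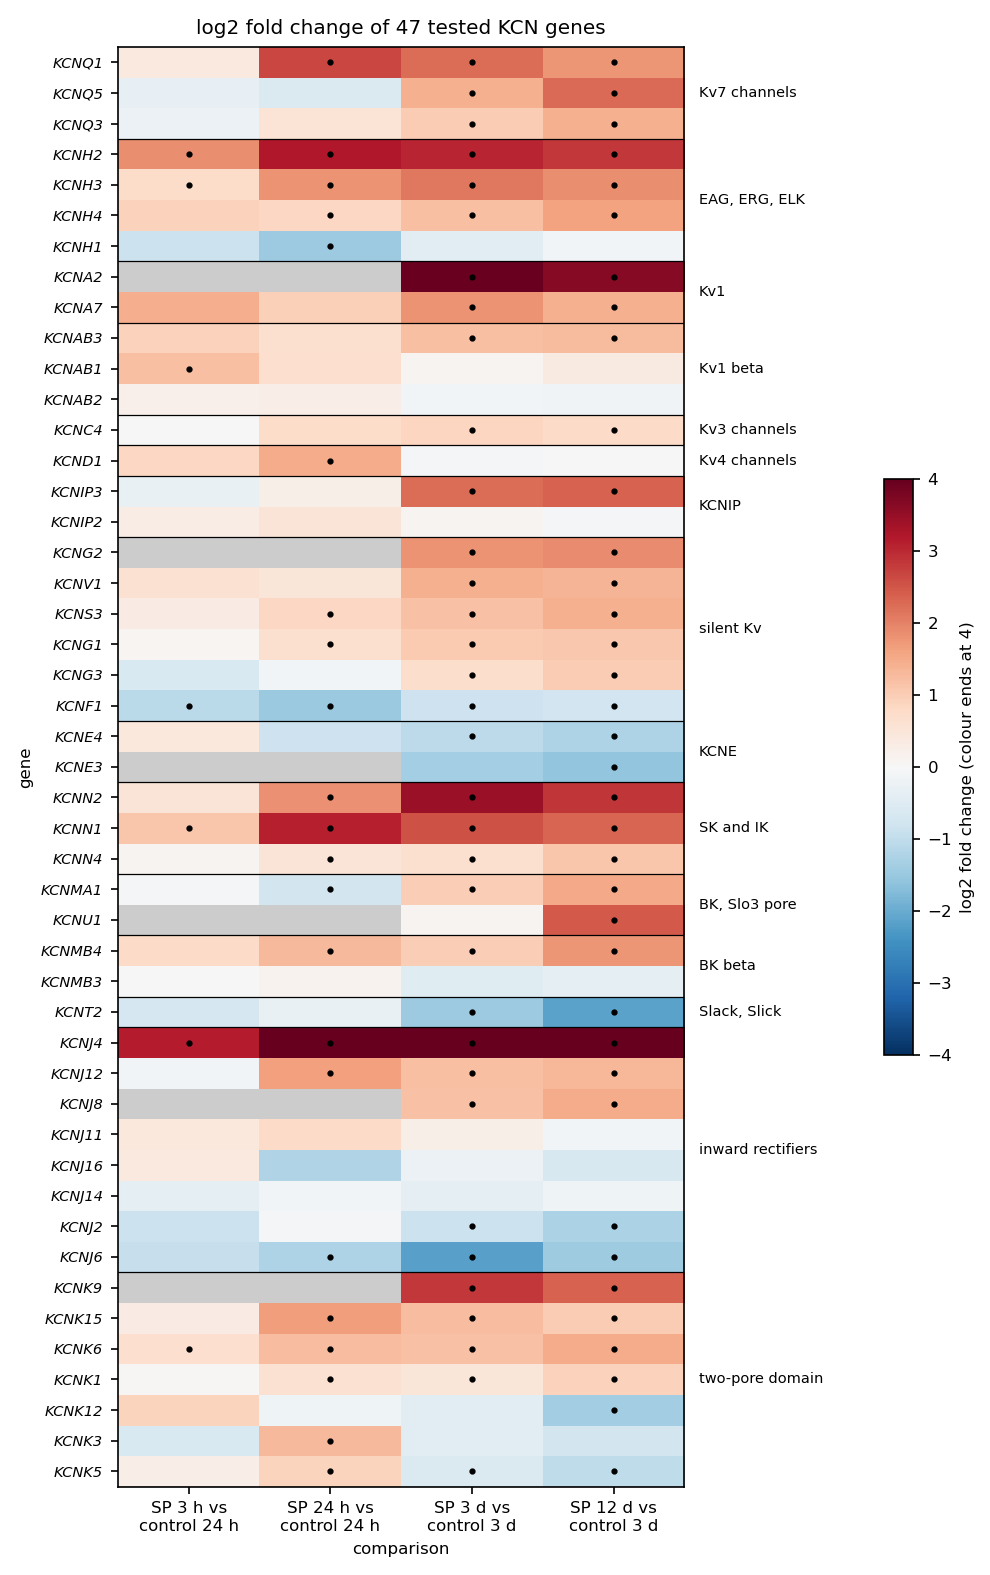
Log2 fold changes of 47 of the 51 tested KCN genes, grouped by channel family, in the 4 comparisons with control (red higher, blue lower, grey not tested, dots for an adjusted p under 0.05). Most fields are higher with SP, KCNF1 is lower in all 4, and KCNJ4 is off the colour scale at 24 h, 3 days and 12 days.

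The libraries held 14187401 to 43765330 counted reads, of which KCN genes took 0.0295% to 0.0673%. All 10 marker genes of A549 had reads in every group, and CDKN2A, which this line has lost, had 0. At 3 days 6 of these 10 fell and 2 rose, and their sum went from 26800 to 29600 CPM in control to 22400 to 23500 in SP 3 days. The 8 neuronal markers, of which 1 or 2 were at 0 in each group, summed to 84.5 to 91.1 CPM in control 24 h and 120 to 133 in SP 24 h, and to 220 to 232 in control 3 days, 284 to 296 in SP 3 days and 297 to 347 in SP 12 days. Among them NEFL rose at 3 days (3.47, adjusted p = 1.20e-09) and RBFOX3 fell (−0.62, adjusted p = 0.0155). The 6 fibroblast markers went from 15.2 to 16.4 CPM in control 3 days to 63.1 to 73.6 in SP 3 days, and the 4 leukocyte markers from 16.2 to 17.8 to 34.3 to 37.4. Endothelial markers stayed at 2.88 CPM or less and those of muscle at 0.244 or less. The part of these markers in the results was not tested. Replicate 3 of SP 12 days had a mean correlation with its mates of 0.985, against 0.990 and 0.988 for those, and results that rest on it are given without it too. The libraries of control 24 h, on which the comparisons of the hours rest, lay further apart, at 0.979, 0.983 and 0.975.

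Promoters of 6 members are shown, as these are among the largest rises and falls at 3 days of members with a single RefSeq promoter entry. Each is the 250 bases before the annotated start (RefSeq, GRCh38.p14), and capitals mark CpG, the dinucleotide that carries DNA methylation. KCNJ4, KCNN2 and KCNIP3 rose, and KCNJ6, KCNT2 and KCNJ2 fell.
KCNJ4: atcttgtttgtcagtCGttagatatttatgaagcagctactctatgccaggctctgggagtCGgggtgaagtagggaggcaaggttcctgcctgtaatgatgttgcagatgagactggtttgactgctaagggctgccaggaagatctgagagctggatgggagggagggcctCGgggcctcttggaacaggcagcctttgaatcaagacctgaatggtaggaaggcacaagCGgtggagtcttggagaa
KCNN2: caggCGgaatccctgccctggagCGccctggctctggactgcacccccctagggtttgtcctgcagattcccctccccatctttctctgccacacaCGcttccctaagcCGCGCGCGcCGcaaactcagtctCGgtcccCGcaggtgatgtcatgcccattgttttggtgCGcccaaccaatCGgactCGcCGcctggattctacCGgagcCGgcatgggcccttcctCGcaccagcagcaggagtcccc
KCNIP3: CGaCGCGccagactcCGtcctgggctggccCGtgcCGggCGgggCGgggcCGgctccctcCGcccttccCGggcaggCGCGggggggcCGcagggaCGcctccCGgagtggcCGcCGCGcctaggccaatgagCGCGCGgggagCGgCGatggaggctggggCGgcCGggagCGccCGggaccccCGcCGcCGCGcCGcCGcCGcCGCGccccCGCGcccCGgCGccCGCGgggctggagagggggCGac
KCNJ6: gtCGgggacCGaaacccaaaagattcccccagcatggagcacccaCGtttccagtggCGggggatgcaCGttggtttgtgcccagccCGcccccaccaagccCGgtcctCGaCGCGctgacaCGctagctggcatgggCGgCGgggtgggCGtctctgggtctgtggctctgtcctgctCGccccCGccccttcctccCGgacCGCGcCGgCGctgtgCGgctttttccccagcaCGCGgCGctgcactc
KCNT2: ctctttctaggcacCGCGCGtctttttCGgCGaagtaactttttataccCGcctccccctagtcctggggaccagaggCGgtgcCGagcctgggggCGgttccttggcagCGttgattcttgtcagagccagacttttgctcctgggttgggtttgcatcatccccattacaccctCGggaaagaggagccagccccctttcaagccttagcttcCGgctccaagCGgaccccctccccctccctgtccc
KCNJ2: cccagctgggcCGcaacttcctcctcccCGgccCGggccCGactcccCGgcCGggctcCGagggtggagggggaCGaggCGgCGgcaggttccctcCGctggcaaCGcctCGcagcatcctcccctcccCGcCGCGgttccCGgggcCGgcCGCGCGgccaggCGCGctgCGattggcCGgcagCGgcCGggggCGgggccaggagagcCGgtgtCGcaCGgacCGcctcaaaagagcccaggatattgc

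They lie at chr22:38444029-38444278 on the minus strand (KCNJ4), chr5:114361820-114362069 on the plus strand (KCNN2), chr2:95346408-95346657 on the plus strand (KCNIP3), chr21:37916458-37916707 on the minus strand (KCNJ6), chr1:196608441-196608690 on the minus strand (KCNT2) and chr17:70169282-70169531 on the plus strand (KCNJ2). The promoters of genes that rose hold 4, 17 and 44 CpG and those of genes that fell 25, 13 and 32, so the directions overlap. Of the 96 members 72 had an entry. The letters GGGCGG, searched on both strands, stood in 15 of 18 promoters of members that rose at 3 days, in 4 of 5 that fell, in 6 of 10 that did not pass and in 15 of 39 not tested. They stood in 56.7% of 15339 promoters of protein-coding genes. CAGGTG, an E-box, stood in 4 of the 18 and 0 of the 5, against 17% of all promoters, and TATAAA in 1 of the 18 and 1 of the 5, against 9.22%. A match describes these letters only.

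Few KCN genes were well expressed without SP. Over the 6 control libraries KCNN4, the calcium-activated IK channel of epithelia and lymphocytes, had 17.0 ± 1.25 RPKM and lay above all other members in every control library. KCNK1, a two-pore domain channel, followed at 7.59 ± 0.599. KCNK5, an acid-sensitive channel of epithelia, had 5.23 ± 2.58, and KCNF1, a silent Kv subunit, 4.47 ± 1.95. KCNS3 (3.91 RPKM), KCNH3 (3.15), KCNAB2 (2.9), KCNK6 (2.82), KCNJ2 (1.77) and KCNMA1 (1.25) completed the first 10. The exon length used is that of all annotated exons joined, 39437 bases for KCNMA1 and 3123 for KCNN4, so this order depends on the annotation. From KCNK1 downward, neighbours in this order overlapped over the 6 libraries. The controls of the 2 tables differed for some of them, as KCNK5 had 2.94 RPKM in control 24 h and 7.52 in control 3 days, and KCNMA1 1.95 and 0.548. Time and experiment cannot be told apart in that difference.

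Summed over all members, the level was 54.6 to 60.8 RPKM in control 24 h, 58.4 to 71.2 in SP 3 h and 93.9 to 95.4 in SP 24 h. It was 66.6 to 72.1 in control 3 days, 114 to 117 in SP 3 days and 122 to 134 in SP 12 days. SP 24 h, SP 3 days and SP 12 days lay above their controls in every library, while SP 3 h overlapped its control. The SK and IK channels, mostly KCNN4, went from a mean sum of 16.9 RPKM in control 3 days to 29.0 in SP 3 days and 38.5 in SP 12 days. The EAG, ERG and ELK channels went from 3.86 to 18.1 and 15.4. Inward rectifiers, whose members moved both ways, summed to between 5.23 and 9.78 in all libraries of the first table.

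**Figure D2:**
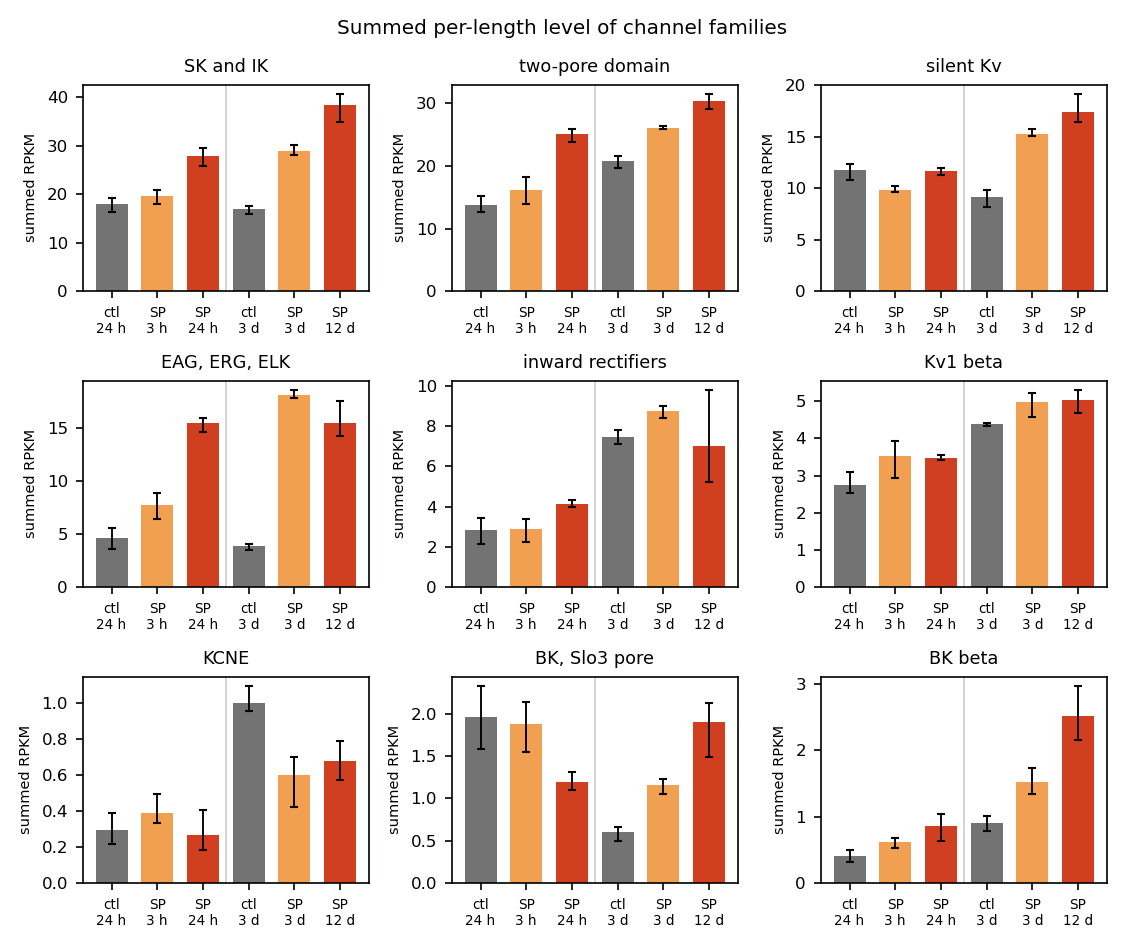
Summed level per exon length (RPKM) of KCN families in the 6 groups, with bars for means of 3 libraries, whiskers from the lowest to the highest library and a line between the 2 tables, which were normalised separately. SK and IK channels are highest and reach a mean of 38.5 in SP 12 days, and EAG, ERG and ELK channels rise from 3.86 in control 3 days to 18.1 in SP 3 days.

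Kv7 channels (KCNQ) are slowly activating voltage-gated channels, known for the KCNQ1 current of heart and epithelia and for the M-current of neurons. KCNQ1, KCNQ3 and KCNQ5 rose at 3 days and at 12 days. KCNQ1 had 2.39, 2.69 and 3.25 CPM in control 3 days, 13.6, 13.3 and 12.0 in SP 3 days and 5.50, 5.79 and 16.7 in SP 12 days, where replicate 3 was far above the others. Its change was 2.23 ± 0.45 at 3 days (adjusted p = 0.00364) and 1.78 ± 0.45 at 12 days (adjusted p = 0.0113), and 1.02 ± 0.17 at 12 days without that replicate (adjusted p = 1.69e-05). Without the expression filter the call at 12 days was lost (adjusted p = 0.0534). In the second table KCNQ1 had 0.318, 0.634 and 0.596 CPM in control, 0.847, 0.713 and 0.530 in SP 3 h and 2.31, 4.05 and 3.61 in SP 24 h. It rose at 24 h (2.67 ± 0.32, adjusted p = 0.000432) and did not pass at 3 h. Its exons share 177 bases with antisense genes, and reads of both cannot be told apart where strand was not counted.

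KCNQ3, a subunit of the M-current, rose at 3 days (1.03, adjusted p = 0.00117) and 12 days (1.42, adjusted p = 4.37e-05). KCNQ5, another M-current subunit, had 0.909, 0.815 and 0.946 CPM in control 3 days, 2.99, 2.19 and 2.09 in SP 3 days and 4.81, 4.29 and 3.85 in SP 12 days. These 3 groups did not overlap, and SP 12 days exceeded SP 3 days by 0.82 ± 0.20 (adjusted p = 0.0172). At 24 h KCNQ5 had 1.29, 1.37 and 2.43 CPM against 2.7, 2.06 and 2.84 in control and did not pass. KCNQ5 shares 931 exon bases with other genes.

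EAG, ERG and ELK channels (KCNH) include hERG, the KCNH2 product that repolarizes the heart. KCNH2 had 1.38, 2.32 and 2.84 CPM in control 24 h, 6.63, 10.7 and 6.72 in SP 3 h and 16.8, 23.2 and 20.7 in SP 24 h. It had 4.40, 4.51 and 4.14 in control 3 days, 36.2, 36.2 and 36.2 in SP 3 days and 29.3, 25.2 and 37.8 in SP 12 days. No SP library overlapped a control library of its table. The change was 1.87 ± 0.29 at 3 h (adjusted p = 0.00374), 3.19 ± 0.29 at 24 h (adjusted p = 0.000120), 3.06 ± 0.14 at 3 days (adjusted p = 2.49e-10) and 2.82 ± 0.14 at 12 days (adjusted p = 4.93e-10). KCNH3, an ELK channel of the forebrain, also rose at all 4 times. It had 12.3, 15.7 and 17.6 CPM in control 24 h, 26.5, 28.8 and 21.4 in SP 3 h and 51.7, 53.4 and 54.7 in SP 24 h, 3 groups without overlap. Its rise was 1.81 ± 0.16 at 24 h (adjusted p = 0.000101) and 2.11 ± 0.11 at 3 days (adjusted p = 4.61e-10).

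KCNH4, another ELK channel, rose at 24 h (0.83, adjusted p = 0.0472), 3 days (1.20, adjusted p = 0.0176) and 12 days (1.60, adjusted p = 0.00177). The call at 24 h was lost under the replicate block (adjusted p = 0.0826). Its call at 3 days was lost without control replicates 1 or 2 or SP 3 days replicate 3, under DESeq2 (adjusted p = 0.0628) and under the GC and length correction (adjusted p = 0.0866). KCNH1, the EAG channel often studied in tumours, fell at 24 h. It had 5.56, 7.45 and 10.3 CPM in control and 2.14, 2.64 and 3.75 in SP 24 h (−1.46 ± 0.26, adjusted p = 0.00328). At 3 days and 12 days KCNH1 did not pass (−0.43 and −0.10). It shares 6023 exon bases with other genes. KCNH5, KCNH6, KCNH7 and KCNH8 were not tested.

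Small and intermediate conductance channels (KCNN) open when calcium binds their calmodulin. The 3 tested members rose at 24 h, 3 days and 12 days, where 16.8%, 25.2% and 26.4% of all genes rose. Among them KCNN2 entered the test through SP libraries. KCNN1, an SK channel, had 0.688, 1.11 and 1.47 CPM in control 24 h and 8.09, 10.6 and 10.1 in SP 24 h (3.11 ± 0.30, adjusted p = 0.000143). It had 2.63, 2.07 and 1.77 in control 3 days, 12.6, 14.4 and 11.5 in SP 3 days and 9.93, 8.88 and 14.1 in SP 12 days, rises of 2.55 and 2.34. SP and control libraries did not overlap at these times. At 3 h KCNN1 passed narrowly (1.10, adjusted p = 0.0494), a call lost under RLE scaling and without any of 7 libraries in turn. KCNN2, an SK channel too, had 6, 2 and 10 reads in control 3 days and 69, 68 and 49 in SP 3 days (3.46 ± 0.39, adjusted p = 2.52e-06). Its call at 24 h (1.84, adjusted p = 0.0145) was lost without SP 24 h replicate 3 (adjusted p = 0.0539).

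KCNN4 had 51.5, 48.0 and 53.3 CPM in control 3 days, 76.5, 81.3 and 79.3 in SP 3 days and 119, 117 and 97.3 in SP 12 days. These 3 groups did not overlap. The rise was 1.55-fold at 3 days (adjusted p = 2.73e-05) and 2.18-fold at 12 days (adjusted p = 5.51e-08), and SP 12 days exceeded SP 3 days by 0.49 ± 0.09 on the log2 scale (adjusted p = 0.00297). At 24 h KCNN4 rose 1.43-fold (adjusted p = 0.00794), and at 3 h it did not pass (1.07-fold, adjusted p = 0.641). KCNN3 was not tested.

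**Figure D3:**
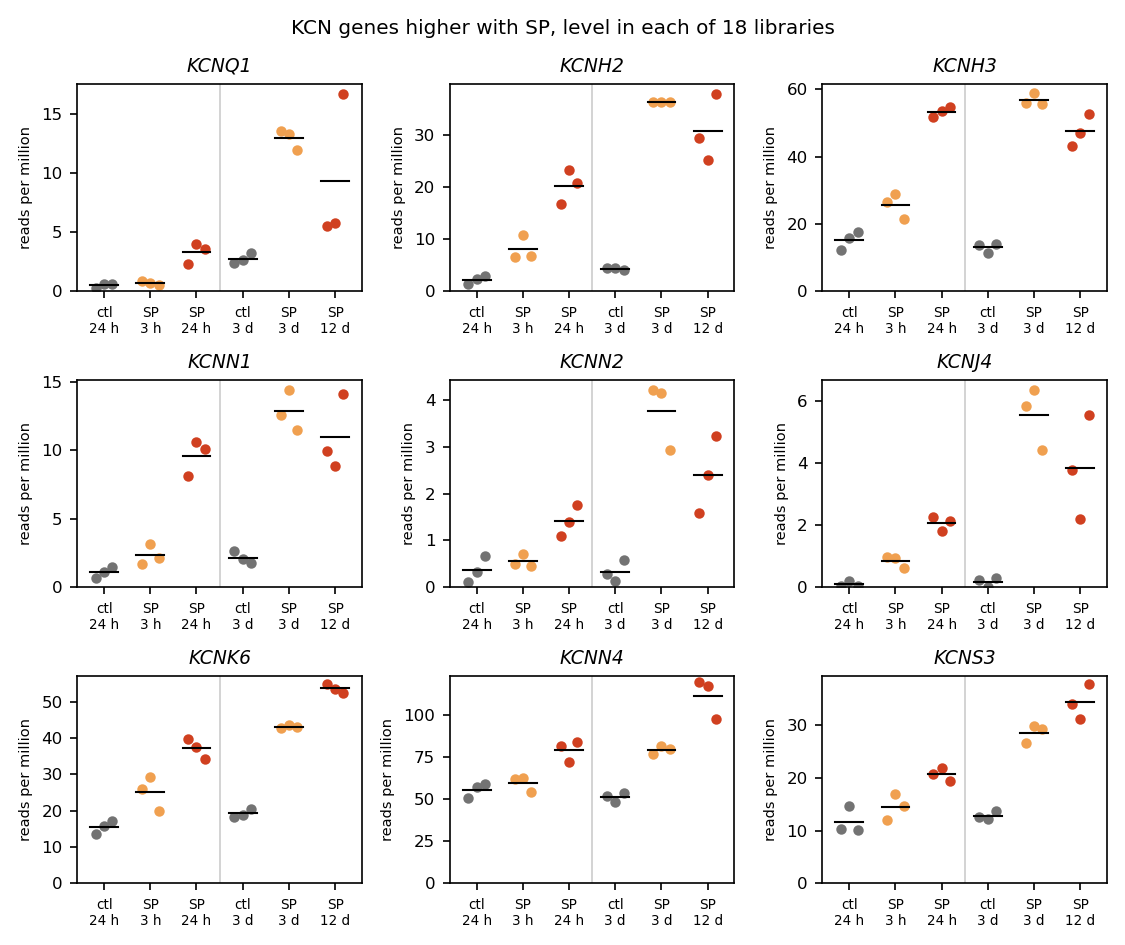
Level (CPM) of KCN genes that rose with SP in each of the 18 libraries, with dots for libraries, lines for means of 3 libraries and grey for control. KCNJ4 is near 0 in all control libraries, while KCNN4 starts high and rises less in fold.

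The BK channel, opened by calcium and voltage together, has its pore from KCNMA1. KCNMA1 had 77.2, 61.8 and 91.5 CPM in control 24 h, 77.5, 60.4 and 84.6 in SP 3 h and 45.8, 43.0 and 50.8 in SP 24 h, and it fell at 24 h (−0.72 ± 0.17, adjusted p = 0.0118). It had 23.6, 22.0 and 19.1 in control 3 days, 44.4, 38.3 and 46.4 in SP 3 days and 70.6, 76.2 and 38.6 in SP 12 days, and it rose at 3 days (0.99 ± 0.24, adjusted p = 0.00737) and 12 days (1.51 ± 0.24, adjusted p = 0.000634). Its SP libraries lay below control at 24 h and above control at 3 days and 12 days. In a fit of all 18 libraries the change at 3 days exceeded that at 24 h by 1.76 ± 0.30 (adjusted p = 0.00246), where 3.13% of all genes had a higher and 3.15% a lower change at 3 days. Time and experiment cannot be told apart in that contrast, since each table has its own control. Without replicate 3 of SP 12 days the rise at 12 days was 1.75 ± 0.10. KCNMA1 shares 419 exon bases with its antisense gene.

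BK beta subunits tune this pore. KCNMB4, the neuronal one, had 3.44, 2.63 and 3.90 CPM in control 3 days, 6.71, 7.43 and 5.80 in SP 3 days and 11.1, 9.63 and 13.5 in SP 12 days, 3 groups without overlap. It rose at 24 h (1.29 ± 0.25, adjusted p = 0.00466), 3 days (0.99 ± 0.18, adjusted p = 0.000357) and 12 days (1.77 ± 0.18, adjusted p = 6.50e-07). KCNMB3, which shares 4267 exon bases with other genes, did not pass at any time. KCNMB1 and KCNMB2 had at most 1 read in a library. KCNU1, the Slo3 channel of sperm, had 5, 7 and 1 reads in control 3 days, 5, 5 and 3 in SP 3 days and 19, 15 and 46 in SP 12 days, and rose at 12 days (2.44 ± 0.51, adjusted p = 0.000908). Only its SP 12 days libraries all reached the cutoff, so KCNU1 entered the test through the group where it was high.

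KCNT2 (Slick), a sodium-activated relative, fell at 3 days and 12 days. It had 8.75, 9.90 and 8.87 CPM in control 3 days, 4.39, 3.11 and 2.45 in SP 3 days and 0.948, 0.898 and 4.03 in SP 12 days, all SP libraries below control. The fall at 3 days (−1.47 ± 0.45, adjusted p = 0.0262) lost its call without any of 5 libraries in turn and without the expression filter (adjusted p = 0.0807). At 12 days the change was −2.15 ± 0.47 (adjusted p = 0.00494), and without replicate 3 it was −3.32 ± 0.24 (adjusted p = 1.78e-11). At 3 h and 24 h KCNT2 lay between 0.316 to 1.64 CPM and did not pass. KCNT1 was not tested.

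Inward rectifiers (KCNJ) moved both ways. KCNJ4, a strong inward rectifier of brain and heart, had 1, 4 and 1 reads in control 24 h, 14, 29 and 15 in SP 3 h and 56, 81 and 63 in SP 24 h. It had 5, 0 and 5 reads in control 3 days, 96, 104 and 74 in SP 3 days and 60, 44 and 125 in SP 12 days. Every SP library lay above every control library of its table. The ratio of summed reads, scaled to depth, was 9.22 at 3 h (95% counting interval 3.99 to 26.2), 22.3 at 24 h (10.1 to 61.6), 29.8 at 3 days (15.9 to 62.8) and 21.1 at 12 days (11.3 to 44.6). Such intervals cover counting error only. The adjusted p was 0.00464, 0.000176, 5.63e-06 and 1.94e-05 in that order. KCNJ4 shares 260 exon bases with another gene.

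KCNJ12, also a strong inward rectifier, rose at 24 h (1.64, adjusted p = 0.00284), 3 days (1.21, adjusted p = 0.00187) and 12 days (1.33, adjusted p = 0.000698). Its reads are uncertain, as KCNJ18 is a near-identical copy between which reads may be split. KCNJ2, the classical strong inward rectifier of muscle and endothelium, had 18., 17.0 and 15.6 CPM in control 3 days, 8.96, 8.84 and 10.2 in SP 3 days and 5.18, 4.74 and 10.8 in SP 12 days. It fell at 3 days (−0.85 ± 0.25, adjusted p = 0.0140) and 12 days (−1.27 ± 0.25, adjusted p = 0.00142), with all SP libraries below control, and without replicate 3 the change at 12 days was −1.79 ± 0.13. KCNJ6, a G protein-gated rectifier of neurons, had 33, 26 and 25 reads in control 3 days, 7, 6 and 4 in SP 3 days and 9, 12 and 13 in SP 12 days. It was the 1 member called lower at 3 days (−2.16 ± 0.32, adjusted p = 4.97e-05). For the days and for the hours only its control libraries all reached the cutoff, so KCNJ6 entered the test through the group where it was high. Its fall at 24 h (−1.24, adjusted p = 0.0424) was lost without any of 7 libraries in turn, under DESeq2 (adjusted p = 0.0839) and under the replicate block (adjusted p = 0.0592).

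Of the pores of ATP-sensitive channels, KCNJ8 had 8, 3 and 12 reads in control 3 days and 17, 14 and 17 in SP 3 days. It passed at 3 days (1.17, adjusted p = 0.0354), a call lost without any of 5 libraries in turn and under DESeq2 (adjusted p = 0.0769), and it rose at 12 days (1.48, adjusted p = 0.00703). KCNJ11 had 4.40, 4.95 and 6.09 CPM in control 3 days and 6.65, 5.48 and 6.16 in SP 3 days and did not pass at any time, although under the replicate block it did at 24 h (0.76, adjusted p = 0.0345). ABCC8, a sulphonylurea receptor that surrounds these pores, rose at 24 h (1.02, adjusted p = 0.0279) and 3 days (0.72, adjusted p = 0.00272). KCNJ14 and KCNJ16 did not pass against control at any time, although KCNJ16 did at 24 h under the replicate block (−1.21, adjusted p = 0.0451). In SP 12 days KCNJ16 had 4.93, 4.04 and 11.5 CPM. Without replicate 3 of that group it was lower at 12 days (−1.30 ± 0.17, adjusted p = 7.49e-07). KCNJ1, KCNJ3, KCNJ5, KCNJ9, KCNJ10, KCNJ13, KCNJ15 and KCNJ18 were not tested.

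Two-pore domain channels carry background current. KCNK6 had 18.4, 18.7 and 20.6 CPM in control 3 days, 42.8, 43.5 and 43.0 in SP 3 days and 54.9, 53.6 and 52.5 in SP 12 days, 3 tight groups without overlap. It rose at all 4 times, by 0.68 ± 0.16 at 3 h (adjusted p = 0.0238), 1.25 ± 0.16 at 24 h (adjusted p = 0.000603), 1.16 ± 0.08 at 3 days (adjusted p = 2.35e-08) and 1.48 ± 0.08 at 12 days (adjusted p = 1.28e-09). KCNK1, its close relative, rose at 24 h (1.53-fold), 3 days (1.39-fold) and 12 days (1.91-fold). The acid-sensitive KCNK9 had 3, 2 and 2 reads in control 3 days and 25, 10 and 13 in SP 3 days, a ratio of 7.45 (counting interval 3.35 to 19.5), and rose at 3 days (adjusted p = 0.000560) and 12 days (adjusted p = 0.00290). KCNK15 rose at 24 h (1.66, adjusted p = 0.00135), 3 days (1.22, adjusted p = 0.00494) and 12 days (1.02, adjusted p = 0.0142). The last call of KCNK15 was lost without control replicates 2 or 3 or SP 12 days replicate 3, and the gene shares 563 exon bases with antisense genes.

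KCNK5 moved in opposite directions in the 2 tables. It had 9.95, 14.4 and 8.98 CPM in control 24 h and 20.4, 23.3 and 17.6 in SP 24 h, a rise of 0.88 ± 0.28 (adjusted p = 0.0391). It had 30.1, 25.9 and 29.4 in control 3 days, 19.3, 19.1 and 18.6 in SP 3 days and 11.1, 13.3 and 17.3 in SP 12 days. It fell at 3 days (−0.58 ± 0.13, adjusted p = 0.00168) and 12 days (−1.03 ± 0.13, adjusted p = 1.06e-05), and SP 24 h, SP 3 days and SP 12 days did not overlap their control. The change at 3 days less that at 24 h was −1.43 ± 0.31 (adjusted p = 0.0116). KCNK3, also acid-sensitive, rose at 24 h (1.29 ± 0.28, adjusted p = 0.00913) and did not pass at 3 days or 12 days, but without SP 12 days replicate 3 it was lower at 12 days (−1.62 ± 0.19, adjusted p = 8.78e-08). KCNK12, with 10, 13 and 11 reads in control 3 days and 5, 1 and 8 in SP 12 days, fell at 12 days (−1.39, adjusted p = 0.0457). That call was lost without any of 5 libraries in turn, under DESeq2 (adjusted p = 0.116) and under the replicate block (adjusted p = 0.0681), and KCNK12 shares 1347 exon bases with another gene. KCNK2, KCNK4, KCNK7, KCNK10, KCNK13, KCNK16, KCNK17 and KCNK18 were not tested.

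Among the other Kv channels KCNC4 rose 1.83-fold at 3 days (adjusted p = 9.99e-06) and 1.68-fold at 12 days (adjusted p = 4.05e-05). KCNA2, an axonal Kv1 channel, had 1, 2 and 0 reads in control 3 days, 13, 13 and 22 in SP 3 days and 23, 8 and 13 in SP 12 days, ratios of 17.4 (counting interval 5.6 to 87.2) and 13.5 (4.33 to 68.0). KCNA7 rose at 3 days (1.81, adjusted p = 0.000179) and 12 days (1.43, adjusted p = 0.00144).

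Of the beta subunits that bind Kv1 pores, KCNAB3 rose at 3 days (1.21, adjusted p = 4.38e-05) and 12 days (1.25, adjusted p = 2.56e-05). KCNAB2, the most expressed of them at 3.47 RPKM in control 3 days, did not pass at any time. KCNAB1 passed at 3 h (1.20, adjusted p = 0.0483), a call that was lost without any of the 9 libraries, and not at the other times. KCND1, an A-type pore, had 0.688, 1.16 and 1.23 CPM in control 24 h and 2.55, 2.98 and 3.17 in SP 24 h (1.48 ± 0.35, adjusted p = 0.0122), 2 groups without overlap. At 3 days it had 4.51, 3.41 and 3.89 against 4.40, 3.88 and 4.02 in control and did not pass. KCNIP3, a calcium sensor that binds A-type pores, had 5, 6 and 6 reads in control 3 days and 23, 22 and 31 in SP 3 days (2.25 ± 0.33, adjusted p = 4.40e-05), and did not pass at 24 h (0.24, adjusted p = 0.732). The change at 3 days less that at 24 h was 2.07 ± 0.60 for KCNIP3 (adjusted p = 0.0475) and −1.49 ± 0.39 for KCND1 (adjusted p = 0.0273), calls lost without any of 12 and of 6 of the 18 libraries in turn. KCNIP2 did not pass.

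**Figure D4:**
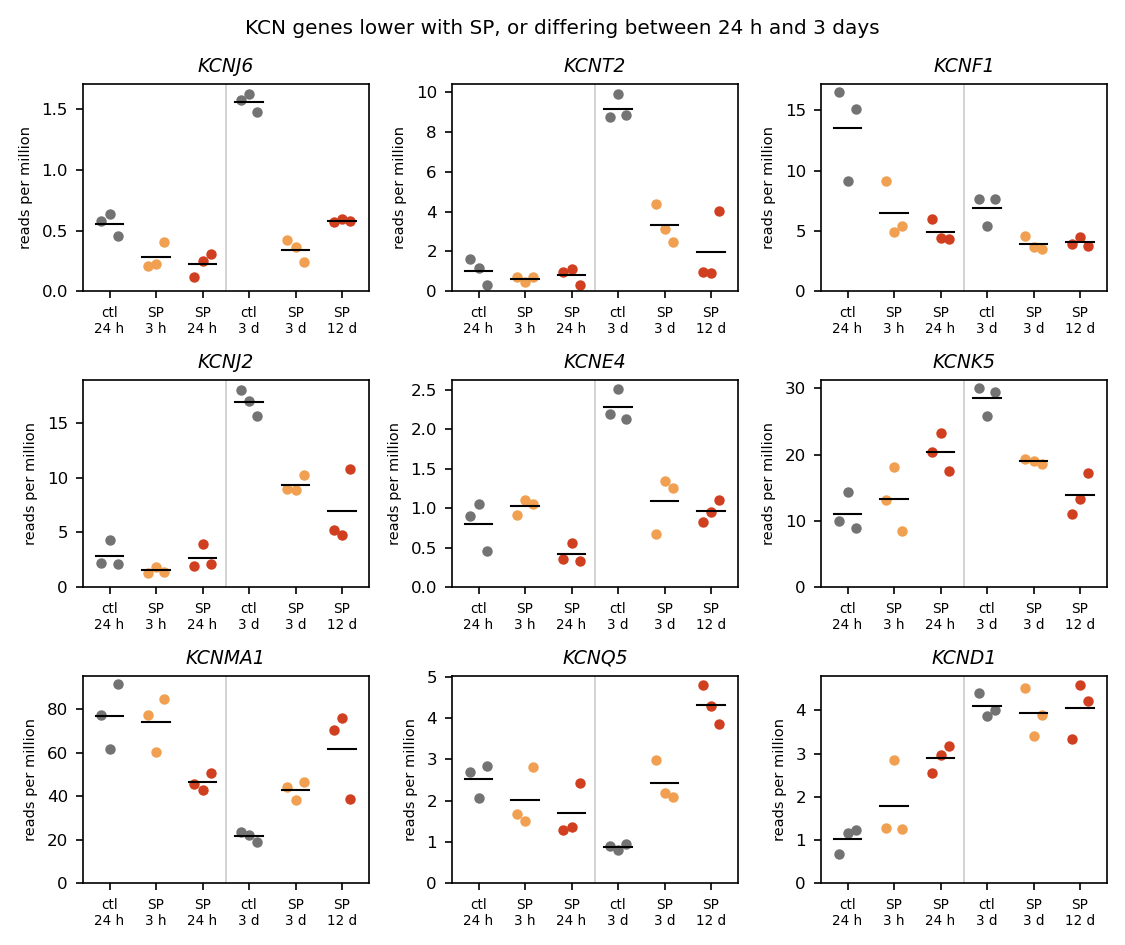
Level (CPM) in each library of KCN genes that fell with SP and of genes whose change differed between 24 h and 3 days, with dots for libraries, lines for means of 3 libraries and grey for control. In KCNT2 and KCNJ2 replicate 3 of SP 12 days lies near the SP 3 days libraries.

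Silent Kv subunits form no channel alone and change the current of their Kv2 partners. At 3 days and at 12 days 5 of the 6 tested rose and KCNF1 fell, where 25.2% and 26.4% of all genes rose. KCNS3, an electrically silent modifier, had 12.6, 12.2 and 13.7 CPM in control 3 days, 26.6, 29.8 and 29.3 in SP 3 days and 34.1, 31.3 and 37.9 in SP 12 days, 3 groups without overlap. It rose by 1.16 ± 0.10 at 3 days (adjusted p = 2.41e-07) and 1.43 ± 0.10 at 12 days (adjusted p = 1.90e-08). KCNV1 (1.41, adjusted p = 2.35e-06), KCNG1 (1.06, adjusted p = 3.87e-05) and KCNG3 (0.70, adjusted p = 0.0224) rose at 3 days, and all 3 also at 12 days. KCNG2 passed at 3 days (1.81) and 12 days (1.88), but it entered the test through SP libraries, and both calls were lost under the GC and length correction (adjusted p = 0.179 and 0.118). Its call at 3 days was also lost without any library of the 6 compared, and without SP 12 days replicate 3 its change at 12 days was 0.73 (adjusted p = 0.262).

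KCNF1 was the 1 member lower at all 4 times. It had 16.5, 9.14 and 15.1 CPM in control 24 h, 9.17, 4.93 and 5.42 in SP 3 h and 5.99, 4.45 and 4.32 in SP 24 h, and 7.65, 5.45 and 7.62 in control 3 days, 4.57, 3.66 and 3.47 in SP 3 days and 3.92, 4.49 and 3.77 in SP 12 days. SP 24 h, SP 3 days and SP 12 days lay below control without overlap. The fall was −1.47 ± 0.29 at 24 h (adjusted p = 0.00526), −0.83 ± 0.18 at 3 days (adjusted p = 0.00119) and −0.77 ± 0.17 at 12 days (adjusted p = 0.00173). Its call at 3 h (−1.08, adjusted p = 0.0403) was lost without any of 7 libraries in turn.

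KCNE genes encode small membrane partners of KCNQ1 and other pores. KCNE4, an inhibitor of KCNQ1 current, had 2.20, 2.51 and 2.13 CPM in control 3 days, 0.671, 1.34 and 1.26 in SP 3 days and 0.822, 0.948 and 1.11 in SP 12 days, with all SP libraries below control. It fell at 3 days (−1.06 ± 0.27, adjusted p = 0.00458) and 12 days (−1.22 ± 0.27, adjusted p = 0.00143). KCNE3, which opens KCNQ1 in epithelia, had 20, 15 and 18 reads in control 3 days, 7, 5 and 7 in SP 3 days and 5, 0 and 14 in SP 12 days. Its change was −1.35 at 3 days (adjusted p = 0.0542), and it fell at 12 days (−1.59, adjusted p = 0.0243), a call lost without any of 4 libraries in turn. Only its control libraries all reached the cutoff, so KCNE3 entered the test through the group where it was high. KCNE1, KCNE2 and KCNE5 were not tested. The other members not tested were KCNA1, KCNA3, KCNA4, KCNA5, KCNA6, KCNA10, KCNB2, KCNC1, KCNC2, KCND2, KCND3, KCNG4, KCNS1, KCNS2, KCNV2, KCNIP1, KCNIP4 and KCNRG.

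Within the SP groups, SP 24 h differed from SP 3 h in 15 of 45 members, of which 12 were higher and 3 lower, against 11.7% and 8.4% of all genes. In each of 3 fits, without SP 3 h replicate 3 or SP 24 h replicates 1 or 3, 9 were higher and 0 lower. Of all genes 1199 to 1461 were higher and 608 to 744 lower in these 3 fits, in place of 2038 and 1459. Among the members higher with all libraries kept were KCNQ1 (2.29 ± 0.31, adjusted p = 0.00160) and KCNN1 (2.0 ± 0.27, adjusted p = 0.00173). SP 12 days was higher than SP 3 days in 6 of 51 members (KCNK1, KCNK6, KCNMB4, KCNN4, KCNQ5 and KCNU1) and lower in 0, against 4.46% and 3.65% of all genes. Of these KCNU1 entered the test through SP 12 days alone. Comparisons with the same control share its libraries, so that no overlap between them is read here.

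The comparison of 12 days with 3 days rests on replicate 3 of SP 12 days. This library was the highest of its group in 31 of 51 members (60.8%), and it was over 2-fold above the mean of its mates in 8 members and over 2-fold below it in 0. It was 4.37-fold above in KCNT2, 4.32-fold in KCNG2, 3.23-fold in KCNK3 and 2.96-fold in KCNQ1. Without it 9 members were higher and 15 lower in SP 12 days than in SP 3 days, among the latter KCNT2 (−1.85) and KCNQ1 (−1.21). Of all genes 13.6% were higher and 14.5% lower in the same fit. Against control 3 days, 31 members were higher and 10 lower without it, and 27.3% and 27.6% of all genes.

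**Figure D5:**
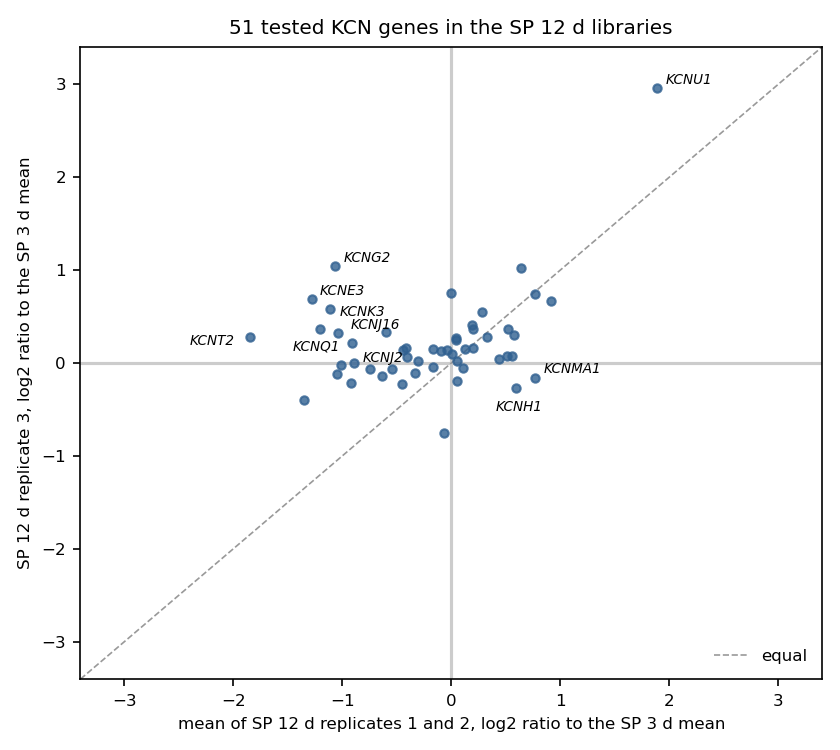
Level of the 51 tested KCN genes in replicate 3 of SP 12 days against the mean of replicates 1 and 2, each as log2 ratio to the mean of SP 3 days, 1 dot a gene. The 8 genes over 2-fold above their mates lie above the line of equal values, and none lies over 2-fold below it.

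Genes that work beside these channels were listed by hand with earlier results of these data known. Of 4 tested accessory genes without a KCN symbol 3 rose at 3 days and 1 at 12 days, against the same 25.2% and 26.4% of all genes. LRRC26, a partner of the BK pore, had 0.669, 0.815 and 0.532 CPM in control 3 days and 4.33, 4.14 and 3.65 in SP 3 days (2.58, adjusted p = 9.99e-07). Of 9 tested genes of the Na/K and H/K pumps, which restore the K+ gradient, 5 rose and 1 fell at 3 days, and 6 rose and 1 fell at 12 days. FXYD2, the pump modulator of kidney, had 22.5, 18.3 and 23.8 CPM in control, 1.65, 3.11 and 2.15 in SP 3 days and 0.822, 0.599 and 0.753 in SP 12 days (−3.22 at 3 days, adjusted p = 2.02e-09). Its 3 groups did not overlap.

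Of 9 tested sodium channel genes 5 rose and 0 fell at 3 days, and 6 rose and 0 fell at 12 days. Of 16 calcium channel genes 10 rose and 3 fell at both times. Of 8 CLC chloride channel genes 5 rose and 0 fell at 3 days, while 2 rose and 1 fell at 12 days. Of 5 other cation channels that pass K+ 3 rose at both times, among them HCN4, a pacemaker channel, with 0.717, 0.439 and 0.709 CPM in control and 7.86, 7.25 and 8.26 in SP 3 days (3.61, adjusted p = 1.62e-09). Of 5 K+-coupled cotransporters 2 rose and 1 fell at both times. The one that fell at 3 days was SLC12A2, which loads the cell with chloride (−0.62, adjusted p = 0.000711). Beside all these lists, the pumps included, 25.2% of all genes rose and 23.3% fell at 3 days. At 12 days 26.4% of all genes rose and 23.4% fell. No test was made of these lists.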

How the data were processed

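Total RNA of 18 A549 libraries, 3 per group, was sequenced as paired ends after NEBNext Ultra library preparation. The deposited values are raw read counts per Ensembl gene, which the authors made by aligning to GRCh38 and counting, with FastQC, STAR 2.7.9a, featureCounts, R 4.2.1 and DESeq2 1.36.0 named in the submitters' processing notes. Whether counting used strand, and how reads with several alignments were treated, is not given in the sources used here, so genes that share exon bases with another gene are named with that limit. Symbols and exon lengths come from GENCODE v44, which held 61369 of 61541 listed genes, and no column was left without a sample.

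Counts were analysed with edgeR 4.0.16 in R 4.3.3. Genes were kept by filterByExpr (minimum count 10), which left 17775 for the days and 17377 for the hours. Libraries of 15425281 to 21992046 reads in the first table and 14187401 to 43765330 in the second were scaled by TMM. All 9 libraries of a table were fitted in 1 quasi-likelihood model of the groups, with Benjamini-Hochberg adjustment of p-values over all genes tested. The change at 3 days less that at 24 h came from a fit of all 18 libraries, which was chosen after seeing the data. Ratios of summed reads carry exact 95% intervals. In simulated counts, genes changed 2-fold were found in 80.6% of cases for 3 days and 63.1% for 24 h, and genes changed 8-fold in 98.5% and 96.9%.

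Named members passed an adjusted p under 0.05 with a fold change of at least 2 and a mean of at least 10 counts in 1 group, were among the 10 highest in control, or were partners of such a channel. KCNC4, outside this rule, was named after its values were seen. Some genes are not reported here by name, though counts over all members include them. The members and lists were chosen with earlier results of these data known. Alternatives were DESeq2 1.42.0, RLE scaling, no filter, only the groups compared, a correction for GC content and length, a replicate block, the thresholds of the study, and leaving out each library. The correction for GC content and length also re-centred each library on its mean log2 CPM. Deviations from the group means of same-numbered libraries correlated at 0.499, 0.17 and 0.504 for control 24 h and SP 24 h, a sign from the data and not from the labels that the numbers pair them. Values printed are those of the model without the block, and the blocked value stands beside a result at 24 h where it changes the call. No such sign was seen in the other comparisons with control, where the values lay between −0.592 and 0.162.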

Additional observations from a re-analysis of the deposited data

Results flagged for a closer look

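Members whose change differed between 2 times, by a test of the difference itself with an adjusted p under 0.05 (edgeR) and a size of at least 2-fold, are given with their log2 difference. SP 24 h less SP 3 h was 2.29 for KCNQ1, 2.0 for KCNN1, 1.89 for KCNK3, 1.74 for KCNJ12, 1.33 for KCNK15, 1.33 for KCNH2, 1.29 for KCNJ4 and 1.06 for KCNH3. It was −1.25 for KCNE4 and −1.6 for KCNJ16. The call of KCNE4 was lost without any of the 6 libraries compared in turn, that of KCNJ16 without any of 5 and that of KCNJ4 without any of 3. SP 12 days less SP 3 days was 2.33 for KCNU1, whose SP 12 days libraries held 19, 15 and 46 reads, and its call was lost without replicates 2 or 3 of SP 3 days. KCNU1 entered the test through SP 12 days alone, the group where it was high.

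The change at 3 days less that at 24 h was 2.07 for KCNIP3, 2.07 for KCNQ5, 1.76 for KCNMA1, −1.43 for KCNK5 and −1.49 for KCND1. The call of KCNIP3 was lost without any of 12 of the 18 libraries in turn and that of KCND1 without any of 6. Here time and experiment cannot be told apart, since the tables have separate controls.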

How the results depend on the processing

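The number of potassium channel genes past the threshold was 10 at 3 h, 25 at 24 h, 38 at 3 days and 41 at 12 days. At 3 h it was 3 when only the 2 groups compared were fitted. Of all genes 624 were higher and 349 lower in that fit, in place of 1285 and 714. At the thresholds of the study it was 0, 1, 14 and 17 in the same order, and 0 for SP 24 h against SP 3 h and for SP 12 days against SP 3 days. Leaving out 1 library at a time gave 3 to 10 members at 3 h, 20 to 28 at 24 h, 33 to 40 at 3 days and 37 to 41 at 12 days. In the same fits 621 to 1509 of all genes were higher and 320 to 700 lower at 3 h. At 24 h it was 1872 to 3525 and 924 to 3093. At 3 days it was 3906 to 5171 and 3358 to 5242, and at 12 days 4096 to 4934 and 3509 to 4990. Leaving out 1 library gave 9 to 19 members for SP 24 h against SP 3 h, 2 to 24 for SP 12 days against SP 3 days (2 when replicate 3 of SP 3 days was left out, 3 when it was replicate 2 of that group, and 24 when it was replicate 3 of SP 12 days), and 3 to 7 for the change at 3 days less that at 24 h. Of all genes 1161 to 2404 were higher and 562 to 2002 lower in the first of these. In the second it was 302 to 2456 and 254 to 2617. For the third, 3.13% of all genes were higher and 3.15% lower with all libraries kept. With the replicate block the counts were 11 at 3 h, 25 at 24 h, 38 at 3 days and 40 at 12 days. Of all genes 1208 were higher and 709 lower with the block at 3 h, and 2881 and 2163 at 24 h. It was 4559 and 4255 at 3 days, and 4765 and 4297 at 12 days, with the block. Under it KCNH4 and KCNJ6 lost their call at 24 h and KCNJ11 and KCNJ16 gained one, while KCNAB1 lost its call at 3 h and KCNK12 at 12 days. At the thresholds of the study 2 of all genes were called at 24 h with the block, against 119 without it. For SP 24 h against SP 3 h the GC and length correction, which also re-centred the libraries, gave 42.1% of the passing genes as higher, in place of 58.3%. Of 79 pairs of a named gene and a comparison, 66 kept their call without every single library, 13 lost it without at least 1, and 0 reversed. Fitting only the 2 groups compared lost the calls of KCNF1, KCNAB1 and KCNN1 at 3 h, KCNJ6 at 24 h and KCNE3 at 12 days. Under that setting 70 of the 79 pairs kept their call and these 5 lost it, while the remaining pairs had no result there. Where a call was lost, the cause was not tested. Genes with few reads limit these results, and a member that did not pass at this depth is not shown to be without change.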
